A study of Mus musculus with 36 samples.

Results

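The genes described here are 34 genes of fibrillar collagen and of the interstitial matrix of the heart, chosen by name from the 24061 gene names of the deposited files. The genes were chosen with earlier results of these data known, so their counts beside the shares of all genes are a description. They comprise 5 chains of fibrillar collagens, 7 chains of other collagens, 6 adhesive and matricellular glycoproteins, 6 genes for processing and crosslinking enzymes, 5 elastic fibre genes and 5 proteoglycans. Where a gene had several RefSeq transcripts, the one with most reads over all libraries was kept, and 26 of the 34 had a single transcript. In the other 8 the kept transcript held from 14.5% (Fn1, with 7 transcripts) to 50.7% (Dcn) of the reads listed over the gene's transcripts. Many shares were near an equal split, as in Sparc (2 transcripts, 50%) and Postn (3 transcripts, 33.3%), though Vcan (5 transcripts) was at 32.4%. A low share therefore need not mean that the gene's other reads were lost. All 34 had enough reads to be tested in fibroblast, endothelial and myocyte libraries.

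RNA was sequenced from cardiac fibroblasts, endothelial cells and myocytes of wild-type (WT) C57Bl6J mice. Hearts received a sham treatment or 12 Gy as 1 fraction, delivered with a small animal microirradiator, and cells were collected 6 hours, 7 days or 28 days later. Each of the 18 combinations of cell type, treatment and time has 2 libraries, 36 in all. The labels do not say how the cell types were separated, how old the mice were, or whether replicate libraries came from separate mice, so a p-value here reflects the spread between libraries of a group, which may be technical. The kept transcripts, 1 per gene name, held 25.63 to 31.94 M reads in fibroblast, 25.91 to 45.49 M in endothelial and 10.18 to 19.42 M in myocyte libraries. The 34 genes took 5.996 to 8.169% of those reads in fibroblast, 1.047 to 1.432% in endothelial and 0.428 to 0.801% in myocyte libraries.

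Fibrillar collagens are secreted as procollagen, trimmed outside the cell, assembled into fibrils and crosslinked by enzymes of the lysyl oxidase family. Small proteoglycans set fibril width, fibulins and fibrillin build elastic fibres, and matricellular proteins such as periostin and tenascin C appear where tissue is being remodelled. In the heart, fibroblasts make most of this matrix, and excess deposition is the basis of fibrosis, a known late effect of radiation.

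Promoter windows of 300 bases around the start of transcription were given by RefSeq (build GRCm38.p6) for 21 of the 34 genes. Only 4 of these held the TATA motif TATAAA on either strand, and their stretches of 130 bases before the start are shown because they belong to members on both sides of the pattern described below: Col3a1 and Thbs2 were lower early, Postn and Tnc were higher late. Capitals mark TATAAA or, in Thbs2, its complement on the other strand, and each sequence is written 5′ to 3′ on the strand of the gene. Counted from the start, the motif lay at bases -26 to -21 in Postn. It lay farther away in Col3a1 (-117 to -112), Tnc (-126 to -121) and Thbs2 (-126 to -121). Col3a1 is at chr1:45311408-45311537 (+), Thbs2 at chr17:14694263-14694392 (-), Postn at chr3:54360977-54361106 (+) and Tnc at chr4:64047016-64047145 (-).
Col3a1: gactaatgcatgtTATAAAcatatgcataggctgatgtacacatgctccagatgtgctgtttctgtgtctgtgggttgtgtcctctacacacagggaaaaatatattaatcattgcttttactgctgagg
Thbs2: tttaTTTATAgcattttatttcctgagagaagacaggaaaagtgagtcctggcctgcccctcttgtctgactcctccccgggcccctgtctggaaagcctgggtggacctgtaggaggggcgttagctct
Postn: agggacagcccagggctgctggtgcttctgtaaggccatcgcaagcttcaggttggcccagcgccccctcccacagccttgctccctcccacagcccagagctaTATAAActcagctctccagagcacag
Tnc: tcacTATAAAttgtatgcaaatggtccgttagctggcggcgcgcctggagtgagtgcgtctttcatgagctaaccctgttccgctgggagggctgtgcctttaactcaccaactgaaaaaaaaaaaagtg

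Of 5 motifs searched on both strands, TATAAA stood in the windows of 19% of the 21 members against 15.7% of 27025 genes. A gene counted when any of its windows held the motif, and the number of windows per gene was not compared between members and all genes. The GC box GGGCGG stood in 61.9% of members (13 of 21, among them Col1a2, Col5a1, Col6a2 and Fbn1) against 38.2% of genes, and CCAAT in 33.3% against 41.1%. The AP-1 motif TGACTCA was found in Col6a1 alone among the members and in 5.95% of genes. The SMAD motif GTCTAGAC was found in no member window and in 0.248% of genes. On the strand of the gene alone, GGGCGG stood in 38.1% of members and 25.6% of genes. These shares describe letters in the windows and carry no test.

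In sham libraries the matrix genes were expressed above all in fibroblasts. On the length-normalized scale (RPKM, reads scaled to transcript length and library size), the highest median over the 6 sham fibroblast libraries was that of decorin (Dcn), a proteoglycan that binds collagen fibrils, at 3490 RPKM. Col3a1, the chain of type III collagen, followed at 1170 RPKM and biglycan (Bgn) at 1130 RPKM. The ranges of these 2 genes overlapped, with Col3a1 at 907 to 1290 RPKM and Bgn at 1110 to 1170 RPKM, so their order is not separated from the spread. The lowest level was that of tenascin C (Tnc), at 1.89 RPKM.

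Levels relative to fibroblasts differed widely between members in endothelial libraries. The median endothelial level was 9.09% of the fibroblast level over the 34 genes, with a range from 4.37% for Col5a1 to 166% for fibronectin (Fn1). Over 12 genes listed as fibroblast markers the same ratio ran from 2.94 to 16.9%, with a median of 5.3%. The fibrillar chains Col1a1 (4.47%), Col1a2 (6.71%) and Col3a1 (5.88%) lay inside that range. A group of 10 members lay above it, namely Fn1, Sparc (89.4%), Postn (57.2%), Fbln5 (55%), Eln (51%), Lox (46.2%), Tnc (39.2%), Fbln2 (30.5%), Bgn (21.6%) and Col5a2 (20.7%). The upper end of the range is that of Lamc1 alone, a laminin chain that other cells also make, and the remaining 11 markers ran from 2.94 to 8.05%. Without Lamc1, a choice made after seeing the data, 17 members lay above the range. Whether the markers measure fibroblast RNA in endothelial libraries was not tested. In myocyte libraries the members stood at 1.82 to 20.9% of the fibroblast level and the 12 markers at 5.41 to 11.4%, with 4 members above that range.

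The defining markers of each label were high in its own libraries. Pdgfra stood at 1024 to 1145 CPM (read counts scaled to library size) in sham fibroblast and 40.57 to 97.43 CPM in sham endothelial libraries. Cdh5 stood at 2339 to 2997 CPM in sham endothelial and 1.117 to 7.461 CPM in sham fibroblast libraries. Myh6 stood at 35100 to 49860 CPM in sham myocyte and 22.03 to 45.45 CPM in sham fibroblast libraries. Markers of other cells were also found. At 6 hours, endothelial markers summed to 1910 to 2191 CPM in sham myocyte and 571.8 to 622 CPM in sham fibroblast libraries. They summed to 17060 to 18210 CPM in sham endothelial libraries. Cardiomyocyte markers at 6 hours summed to 434.4 to 696.2 CPM in sham endothelial and 121.6 to 129.4 CPM in sham fibroblast libraries. The part of other cells in the sham levels was not tested. In the fit of all 36 libraries, fibroblast sham levels were higher than endothelial sham levels for 32 members and lower for 1, where 74.2% of 16234 genes were called (36.7% higher, 37.5% lower). The exception was Fn1, at 58.8 RPKM in fibroblasts and 97.7 RPKM in endothelial cells (log2 difference -0.66 ± 0.13 SE, adjusted p = 7e-05). Sparc, a collagen-binding glycoprotein, was not called, at 840 and 750 RPKM (0.20 ± 0.10, adjusted p = 0.0763). All 34 members were higher in fibroblast than in myocyte sham libraries, where 81.3% of genes were called (41.9% higher, 39.4% lower).

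**Figure D1:**
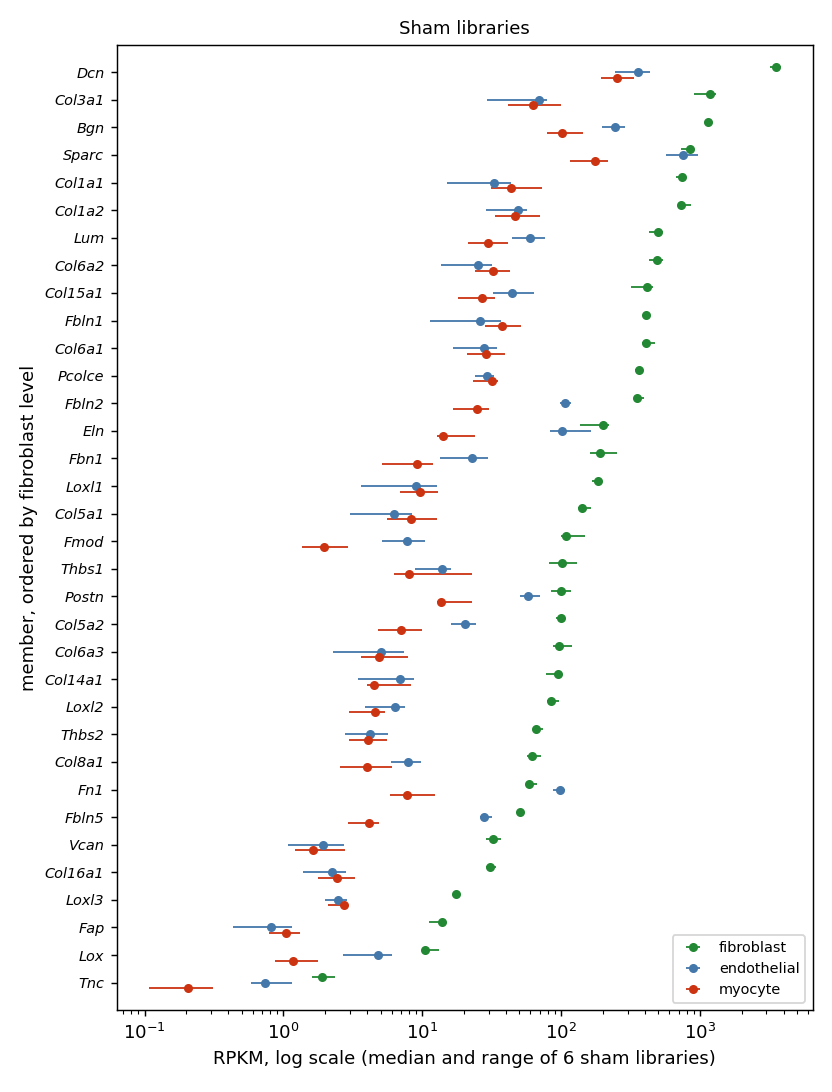
Level of each matrix gene (RPKM, logarithmic axis) in sham libraries of fibroblasts, endothelial cells and myocytes. Points are medians and lines the range of 6 sham libraries, and Fn1 is the member whose endothelial median (97.7 RPKM) lies above the fibroblast median (58.8 RPKM).

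At 6 hours after 12 Gy, matrix genes were lower in irradiated than in sham fibroblasts. Of the 34, 16 were called lower and 1 higher, against 24.6% of 14998 genes called in either direction (12.3% higher, 12.3% lower), and the median log2 fold change of the 34 was -0.24 where that of all genes was -0.002. A gene is called here when the adjusted p of edgeR's quasi-likelihood test, with Benjamini-Hochberg correction across every gene tested, is under 0.05. The members below 0 numbered 30 of 34. Fewer cells of a type and less RNA of a gene per cell cannot be told apart in such bulk libraries.

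Among fibrillar collagens 4 of 5 fell. Col3a1 stood at 8110 and 10420 CPM in the sham libraries and at 6638 and 7036 CPM in the irradiated ones. All irradiated values lay under the sham values, and the difference (log2 fold change -0.44 ± 0.09 SE, adjusted p = 0.00185) was the largest of the 5. Col1a2, the second chain of type I collagen, stood at 5967 and 6835 CPM in sham and 4910 and 4978 CPM in irradiated libraries (-0.37 ± 0.07, adjusted p = 0.000943). Its partner Col1a1 stood at 5215 and 5726 against 4504 and 4695 CPM (-0.25 ± 0.07, adjusted p = 0.0184). The groups did not overlap for either chain, so both parts of the type I molecule were lower together. Col5a1, a chain of the type V collagen that starts fibrils, fell by 0.22 on the log2 scale (adjusted p = 0.0186), while Col5a2 was at -0.13 ± 0.06 (adjusted p = 0.152).

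Of the other collagens 6 of 7 fell, between -0.29 and -0.45. They were the 3 chains of the microfibril-forming type VI collagen (Col6a1, Col6a2 and Col6a3), Col8a1 of type VIII, Col14a1, which binds to the surface of fibrils, and Col15a1, which lies near basement membranes. Col14a1 stood at 799.5 and 986.9 CPM in sham and at 693.1 and 610.4 CPM in irradiated libraries (-0.45 ± 0.09, adjusted p = 0.00292). Col15a1 stood at 2735 and 2727 CPM against 2170 and 2158 CPM (-0.34 ± 0.06, adjusted p = 0.000639). The replicates of Col15a1 nearly coincide and the groups are wide apart, whereas those of Col14a1 spread more. Col16a1 was at -0.09 ± 0.07 and was not called.

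Of the 6 processing enzymes 3 were called lower, and of the 6 glycoproteins 1, although all 6 glycoproteins were below 0 (-0.11 to -0.47). Fap, a membrane protease of activated fibroblasts, stood at 48.67 and 47.7 CPM in sham and 36.14 and 31.95 CPM in irradiated libraries (-0.50 ± 0.07, adjusted p = 0.000121), the largest fall of the 34 genes. The crosslinking enzymes Loxl2 (-0.24 ± 0.06) and Loxl3 (-0.35 ± 0.07) fell, while Lox (0.11 ± 0.13), Loxl1 (-0.12 ± 0.07) and Pcolce (-0.07 ± 0.06), the enhancer of procollagen cleavage, were not called. Thbs2, a thrombospondin that restrains vessel growth, stood at 705.1 and 581.8 against 470.9 and 457.5 CPM (-0.47 ± 0.09, adjusted p = 0.00118). It was the 1 glycoprotein of 6 to fall, while Postn (-0.32 ± 0.11, adjusted p = 0.0537) and Sparc (-0.15 ± 0.06, adjusted p = 0.0869) were not called.

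Fbln5, which guides elastic fibre assembly, fell by 0.43 on the log2 scale (SE 0.06, adjusted p = 0.000189), and lumican (Lum), a small proteoglycan of collagen fibrils, fell by 0.42 (SE 0.08, adjusted p = 0.00115). Versican (Vcan), a large proteoglycan of provisional matrix, was the exception. It stood at 576.3 and 608.9 CPM in sham and 781.7 and 704.7 CPM in irradiated libraries (0.33 ± 0.07, adjusted p = 0.00423). Every irradiated value of Vcan exceeded the sham values.

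The rest of the matrix list and the markers of other cells moved beside these genes at 6 hours. Of 44 other matrix proteins 19 were called lower and 1 higher, of 28 genes for collagen assembly and modification 7 lower and 1 higher, and of 22 tested other collagens 2 lower and 1 higher. The 22 matrix receptors were divided, with 6 higher and 6 lower. Syndecan 4 (Sdc4), a heparan sulfate receptor for fibronectin, rose by 1.41 ± 0.07 on the log2 scale and Itga8, an integrin chain, fell by 0.87. Of the 12 fibroblast markers 6 were called lower (median log2 fold change -0.23), with summed levels of 45890 to 55220 CPM in sham and 44740 to 47240 CPM in irradiated libraries. Pericyte and smooth muscle markers summed to 1772 to 1886 CPM in sham and 1409 to 1478 CPM in irradiated libraries (6 of 12 lower, 1 higher), and mesothelial markers to 2252 to 2530 and 2598 to 2946 CPM (3 of 8 higher, 2 lower). Endothelial markers summed to 571.8 to 622 CPM in sham and 411.1 to 617.8 CPM in irradiated libraries (1 of 12 higher, 2 lower). The part of these cells in the result was not tested. Macrophage and monocyte markers summed to 40.18 to 49.62 CPM in sham and 48.09 to 49.77 CPM in irradiated libraries, with none of the 7 tested called and C1qa at 0.1027 to 0.3764 CPM. Leaving out each library in turn gave between 13 and 20 called members, but the fit of all 36 libraries, which shares the larger spread of the other cell types, called none.

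**Figure D2:**
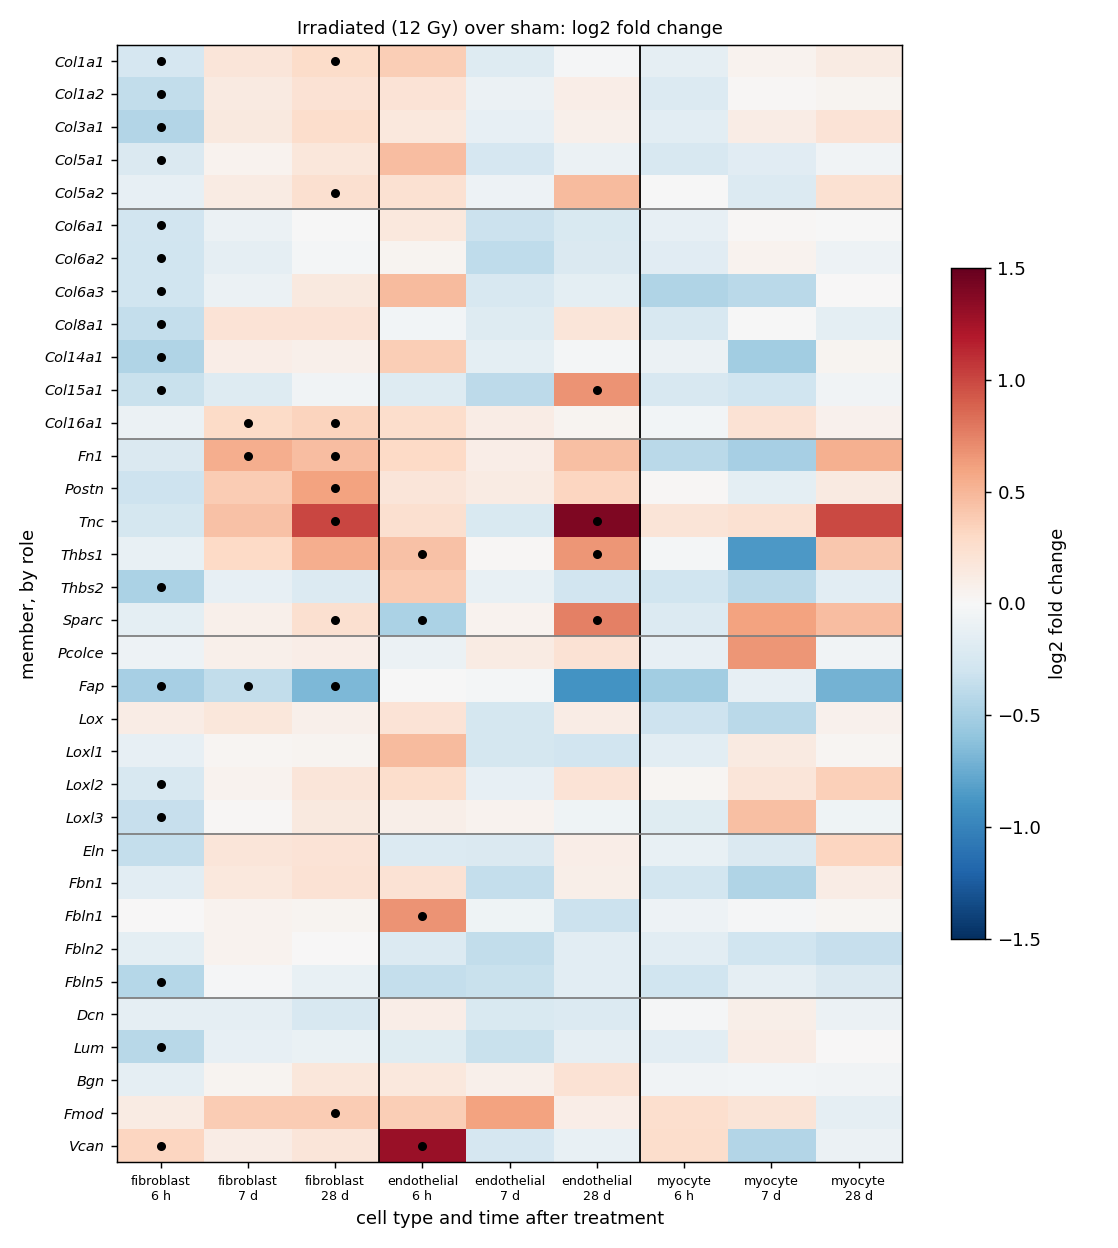
Log2 fold change of irradiated over sham for each of the 34 matrix genes (rows, grouped by role) in 3 cell types at 3 times (columns), with black dots where the gene was called. Fibroblasts at 6 hours hold most of the dots (16 lower, 1 higher), endothelial cells at 6 hours have 3 higher and 1 lower, and no gene was called in myocytes.

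At 7 days 3 of the 34 members were called in fibroblasts. The median log2 fold change was 0.07, with 2 members called higher and 1 lower against 1.84% of 14998 genes called (1.51% higher, 0.327% lower). Fn1, the main adhesive protein of provisional matrix, stood at 834.7 and 816.3 CPM in sham and 1038 and 1377 CPM in irradiated libraries (0.55 ± 0.11, adjusted p = 0.0153). Col16a1 stood at 251.9 and 253.9 against 299.7 and 319.6 CPM (0.29 ± 0.07, adjusted p = 0.0385). Fap was lower, at 60.87 and 60.53 against 46.19 and 47.86 CPM (-0.37 ± 0.07, adjusted p = 0.0113). The 2 irradiated values of Fn1 lie farther apart than those of the other members called. Leaving out irradiated replicate 2 gave 0 called members and leaving out sham replicate 1 gave 1. The fit of all 36 libraries called 0 and DESeq2 called 5, both without the share of all genes called in the same run. Mesothelial markers stood at 1104 to 1718 CPM in sham and 2071 to 2193 CPM in irradiated libraries (2 of 8 called higher, Msln and Upk1b). Fibroblast markers stood at 51970 to 53800 CPM in sham and 42470 to 44800 CPM in irradiated libraries (2 of 12 called lower, Pdgfra and Pi16). Their part in the result was not tested.

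At 28 days more members were called higher than lower. In fibroblasts 8 of the 34 were called higher and 1 lower, against 3.29% of 14998 genes called (2.48% higher, 0.813% lower), and the median log2 fold change was 0.17 where that of all genes was -0.005. The called genes with the largest rises were glycoproteins of remodelling matrix. Tnc, a matricellular protein sparse in the healthy adult heart, stood at 22.91 and 18.28 CPM in sham and 38.52 and 43.9 CPM in irradiated libraries, a 2.01-fold difference (log2 fold change 1.01 ± 0.15, adjusted p = 0.000865). Postn, which binds collagen and is made by activated fibroblasts, stood at 540.2 and 500 against 784.8 and 793.5 CPM (0.60 ± 0.11, adjusted p = 0.00589). Fn1 stood at 774.1 and 764.9 against 1005 and 1110 CPM (0.46 ± 0.11, adjusted p = 0.0259). For all 3 genes the irradiated values lay well above the sham values.

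Of the fibrillar collagens 2 of 5 were called higher. Col1a1 stood at 5217 and 5019 CPM in sham and 5867 and 6538 CPM in irradiated libraries (0.28 ± 0.07, adjusted p = 0.0467), and Col5a2 at 995.3 and 1019 against 1149 and 1228 CPM (0.24 ± 0.06, adjusted p = 0.0475). Both passed the threshold narrowly. Col3a1 stood at 10210 and 10120 against 12120 and 12360 CPM (0.27 ± 0.09, adjusted p = 0.132), and Col1a2 (0.22 ± 0.07, adjusted p = 0.101) and Col5a1 (0.18 ± 0.06, adjusted p = 0.188) were likewise above 0 without being called. The other members called higher were Col16a1 (0.34 ± 0.07, adjusted p = 0.00928), Sparc (0.24 ± 0.06, adjusted p = 0.0356) and the proteoglycan fibromodulin, Fmod (0.38 ± 0.10, adjusted p = 0.0488).

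Fap again went against the others, at 59.88 and 63.7 CPM in sham and 38.35 and 39.1 CPM in irradiated libraries (-0.67 ± 0.07, adjusted p = 4.14e-05). It was called lower at all 3 times, with replicates close together at each. Dcn, the most abundant member, stood at 11470 and 11540 CPM in sham and 9866 and 9538 CPM in irradiated libraries (-0.25 ± 0.06, adjusted p = 0.0541) and did not pass the threshold. Among the other lists, 1 of 22 tested other collagens was called higher (Col18a1, 0.46 ± 0.06), 3 of 44 other matrix proteins were lower, and collagen assembly genes had 1 higher and 1 lower of 28. Fibroblast markers were called lower for 5 of 12 and summed to 55040 to 58730 CPM in sham and 46440 to 46590 CPM in irradiated libraries. Erythroid markers summed to 1165 to 1800 and 247.3 to 551.3 CPM (2 of 6 called lower). Mesothelial markers summed to 1574 to 1707 CPM in sham and 1958 to 1992 CPM in irradiated libraries, with all 8 above 0 and none called. Pericyte and smooth muscle markers overlapped in sum (1810 to 1828 and 1787 to 1911 CPM), with Kcnj8 and Abcc9 called lower. The part of these cells in the result was not tested. In place of 9, dropping sham replicate 1 gave 4 called members, dropping sham replicate 2 gave 2, and dropping irradiated replicate 2 gave 4. The fit of all 36 libraries called none, limma on log2(RPKM + 1) called 5, and tests with no filter on low counts called 14. Those counts stand without the share of all genes called in each run, so they cannot be set against it.

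**Figure D3:**
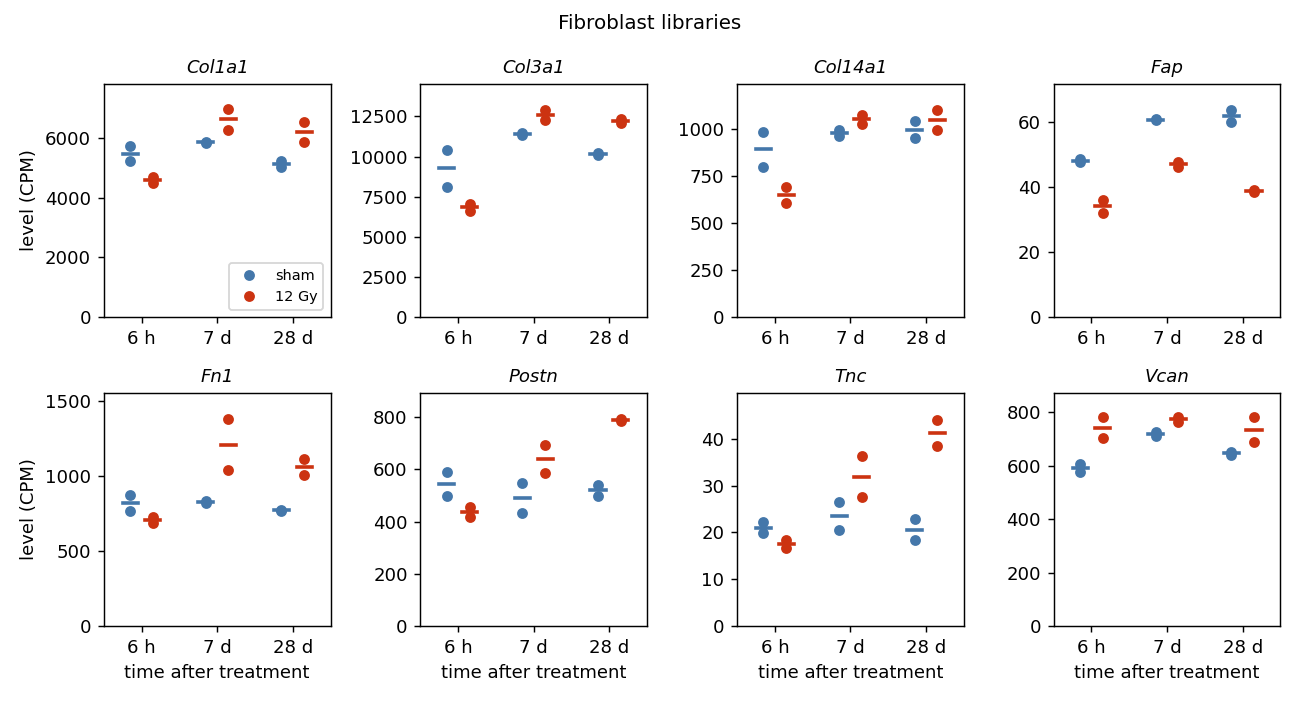
Level (CPM) of 8 matrix genes in each fibroblast library by time, with sham in blue, 12 Gy in red and horizontal bars for the mean of 2 libraries. Irradiated Col1a1, Col3a1 and Col14a1 lie under sham at 6 hours, irradiated Tnc (38.52 and 43.9 CPM) and Postn lie above it at 28 days, and Fap lies under it at all 3 times.

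Whether the radiation effect itself changed between 6 hours and 28 days was tested as a difference of differences in the fibroblast fit. It was more positive at 28 days for 21 of the 34 members and more negative for none, against 10.2% of 14998 genes called (5.23% more positive, 4.93% more negative). The median difference was 0.37 on the log2 scale, against -0.005 over all genes. All 5 fibrillar collagens and all 7 other collagens were among the 21, with Loxl2, Loxl3, Fbn1, Fbln5, Bgn, Fn1, Postn, Tnc and Sparc.

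Among glycoproteins the change was 1.27 ± 0.21 for Tnc, 0.92 ± 0.16 for Postn, 0.68 ± 0.15 for Fn1 and 0.39 ± 0.08 for Sparc, and those of Thbs1 (0.65 ± 0.27) and Thbs2 (0.27 ± 0.12) were not called. The ranges of the roles overlap, and no test compared them. Among fibrillar collagens it ran from 0.37 ± 0.09 for Col5a2 to 0.71 ± 0.12 for Col3a1, and among the other collagens from 0.27 ± 0.08 for Col6a2 to 0.57 ± 0.10 for Col8a1. Among proteoglycans Bgn (0.31 ± 0.08, adjusted p = 0.0243) was the 1 of 5 called. Lox, Fbln1 and Fbln2 were not called, at -0.03 ± 0.18, 0.03 ± 0.08 and 0.15 ± 0.10.

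An early fall and a late rise of the same gene were rarely both called. In 22 members the fitted effect was below 0 at 6 hours and above 0 at 28 days, in 8 it was below 0 at both times and in 4 above 0 at both. Col1a1 was the 1 gene called lower at 6 hours and higher at 28 days. Of the 21 members with a called difference, 13 were called at 6 hours, 7 at 28 days and 2 (Fbn1 and Bgn) at neither. The 3 type VI chains were called lower at 6 hours and not called at 28 days, when Col6a1 was at -0.003 ± 0.054, Col6a2 at -0.03 ± 0.06 and Col6a3 at 0.14 ± 0.07. In Postn, Tnc and Fn1 the effect went from a value below 0 that was not called to a called rise. Lum and Thbs2 were below 0 at both times, and their differences were not called (adjusted p = 0.074 and 0.182).

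The sham fibroblast libraries of these times were compared as well. Between 6 hours and 28 days 3 members were higher in sham libraries, where 4.8% of genes were called (2.09% higher, 2.71% lower): Col15a1 (0.39 ± 0.06), Fap (0.36 ± 0.07) and Lum (0.28 ± 0.08). In the second irradiated library of 6 hours Cdh5 stood at 45.74 CPM, against 3.119 CPM in the first. The endothelial markers together summed to 411.1 to 617.8 CPM in these 2 libraries and 571.8 to 622 CPM in sham. The count of 21 fell without the second irradiated library of 6 hours, and also without the second sham library of 28 days. In the fit of all 36 libraries it was 0, with no share of all genes given for that run. An F-test over the 3 times called 17 members, against 9.89% of genes.

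**Figure D4:**
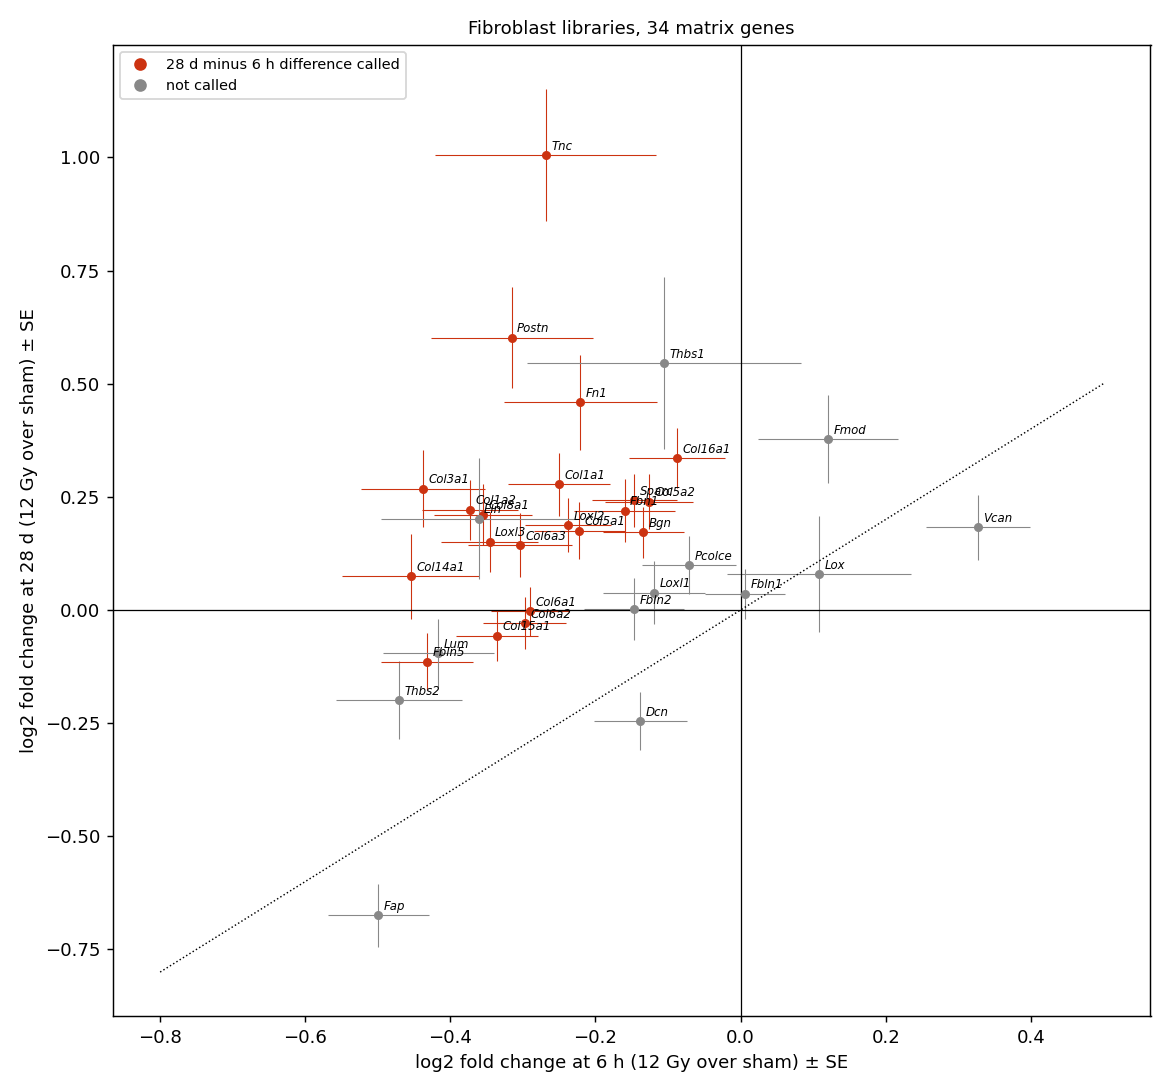
Log2 fold change of irradiated over sham fibroblasts at 6 hours (x axis) and at 28 days (y axis) for the 34 matrix genes, with SE bars and a dotted line of equal effect. The 21 genes in red, for which the difference between times was called, lie above the line, with Tnc (-0.27 and 1.01) farthest from it, and 22 genes lie in the upper left field.

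In endothelial libraries none of the 12 collagen members was called at 6 hours. Of the 34 members 3 were called higher and 1 lower, against 11.3% of 14919 genes called (6.1% higher, 5.23% lower), and the median log2 fold change was 0.21. All 5 fibrillar collagens were above 0, from 0.16 ± 0.17 for Col3a1 to 0.46 ± 0.17 for Col5a1, and none was called. Vcan stood at 26.52 and 20.99 CPM in sham and 49.81 and 66.56 CPM in irradiated libraries (1.29 ± 0.19, adjusted p = 0.000738), so that every irradiated value was higher. Fbln1, a fibulin of elastic fibres and basement membranes, stood at 63.08 and 88.52 against 120.7 and 121.6 CPM (0.68 ± 0.15, adjusted p = 0.0129). Thbs1, a thrombospondin that activates latent TGF-beta, stood at 84.78 and 81.15 against 100.8 and 124.1 CPM (0.44 ± 0.10, adjusted p = 0.0142). Sparc went down, from 4262 and 3531 CPM in sham to 2990 and 2608 CPM in irradiated libraries (-0.48 ± 0.12, adjusted p = 0.0212).

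Other matrix genes were called in both directions at 6 hours. Of 20 tested other collagens, Col12a1 (0.91 ± 0.17), Col22a1 (2.06 ± 0.38) and Col27a1 (0.93 ± 0.16) were higher and Col28a1 (-0.76 ± 0.18), named after its value was seen, was lower. Of 28 collagen assembly genes 6 were lower and 0 higher, among them Serpinh1 (-0.67 ± 0.11), the collagen chaperone, and the hydroxylases Plod1 (-0.60 ± 0.10) and P4ha1 (-0.84 ± 0.17).

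Sparc is also the member with the most endothelial reads, and its groups did not overlap at 6 hours. Fibroblast markers were higher in these irradiated endothelial libraries for 2 of 12 (median log2 fold change 0.26) and summed to 2324 to 2342 CPM against 1864 to 1927 CPM in sham. Their part in the rise of Vcan and Fbln1, which stood in sham endothelial libraries at 5.95 and 6.39% of the fibroblast level, was not tested. In place of 4, dropping sham replicate 1 gave 1 called member and dropping irradiated replicate 2 gave 2. The fit of all 36 libraries called 2, a fit of the 4 libraries alone 2, and tests with no filter on low counts 12. For these runs the share of all genes called is not given.

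At 7 days edgeR called 0 of the 34 members in endothelial libraries, where 1.82% of genes were called (0.925% higher, 0.891% lower), and the median was -0.17. Fibroblast markers summed to 2582 to 2693 CPM in irradiated and 3453 to 3952 CPM in sham libraries, with Pi16 called lower. Their part in the result was not tested. By unadjusted p under 0.05, 7 members differed, all of them lower (Col6a1, Col6a2, Col15a1, Fbn1, Fbln2, Fbln5 and Lum). Their adjusted p by edgeR ran from 0.162 (Fbln2) to 0.506 (Fbn1). The share of all genes under the unadjusted threshold is not given, and 1.82% is not that share. DESeq2 called 1 member. Leaving out each library in turn also gave 0.

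At 28 days 4 members were called higher in endothelial libraries and 0 lower, against 9.97% of 14919 genes called (5.72% higher, 4.25% lower). Tnc stood at 7.944 and 8.261 CPM in sham and 23 and 19.67 CPM in irradiated libraries, a 2.63-fold difference (1.40 ± 0.17, adjusted p = 0.000263). Sparc stood at 2390 and 2395 against 4130 and 3940 CPM (0.75 ± 0.12, adjusted p = 0.00164). Thbs1 stood at 141.8 and 146.5 against 235.1 and 219.7 CPM (0.66 ± 0.10, adjusted p = 0.00129), and Col15a1 at 317.7 and 416.1 against 548.2 and 623 CPM (0.67 ± 0.15, adjusted p = 0.0144). The groups were apart for all 4 genes. No fibrillar collagen was called, with Col1a1 at -0.01 ± 0.16 and Col3a1 at 0.08 ± 0.17, while Col5a2 was at 0.48 ± 0.15 (adjusted p = 0.0608).

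Fibroblast markers in these libraries were called lower for 4 of 12 (median -0.52), at 2922 to 2998 CPM in irradiated and 3124 to 4540 CPM in sham libraries. Erythroid markers were lower for 5 of 6, at 436.2 to 1017 CPM against 1602 to 2142 CPM, and cardiomyocyte markers for 2 of 10 (Ryr2 and Ttn), at 294.3 to 387.6 CPM against 458.3 to 506.6 CPM. Pericyte and smooth muscle markers summed to 2256 to 2937 CPM in irradiated and 2025 to 2213 CPM in sham libraries, with 1 of 12 called higher (Tagln, 0.59 ± 0.15). The part of these cells was not tested. Tests with no filter on low counts called 9 members and DESeq2 called 7, again without the share of all genes called in each run.

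Between 6 hours and 28 days the endothelial effect became more positive for Sparc (1.23 ± 0.17), Tnc (1.15 ± 0.24) and Col15a1 (0.87 ± 0.21) and more negative for Vcan (-1.40 ± 0.26) and Fbln1 (-1.0 ± 0.22), against 9.21% of genes called (4.79% more positive, 4.42% more negative). An F-test over the 3 times called 6 members, against 6.26% of genes. Sparc was called lower at 6 hours and higher at 28 days, as the 1 such member. The sham libraries moved over the same interval: 18 members were higher and 1 lower in sham libraries of 28 days than in those of 6 hours, where 30.1% of genes were called (15.5% higher, 14.7% lower). The lower one was Sparc (-0.70 ± 0.12), and those higher included Col6a3 (1.35 ± 0.17), Loxl1 (1.22 ± 0.19), Fbln1 (1.17 ± 0.15) and Col1a1 (1.04 ± 0.16). Fibroblast markers in the sham endothelial libraries summed to 1864 to 1927 CPM at 6 hours and 3124 to 4540 CPM at 28 days. Their part in the differences between times was not tested. The irradiated levels of Sparc were 2990 and 2608 CPM at 6 hours and 4130 and 3940 CPM at 28 days, so they moved against the sham levels. In place of 5 members, the fit of all 36 libraries called 2 and tests with no filter on low counts called 9. Neither count has its share of all genes beside it.

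**Figure D5:**
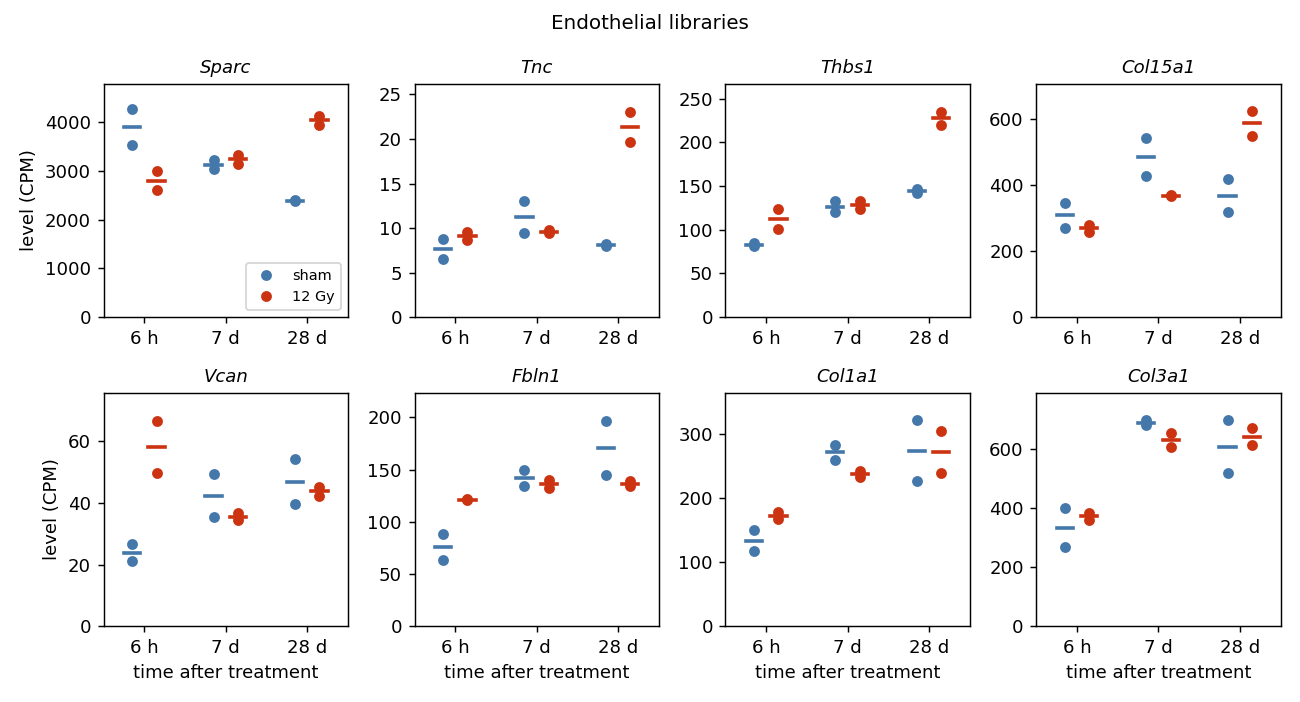
Level (CPM) of 8 matrix genes in each endothelial library by time, with sham in blue, 12 Gy in red and horizontal bars for the mean of 2 libraries. Irradiated Tnc (23 and 19.67 CPM) and Sparc lie above sham at 28 days, Vcan lies above it at 6 hours, and sham Col1a1 and Col3a1 are lowest at 6 hours.

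In myocyte libraries edgeR called 0 of the 34 members at 6 hours, 7 days and 28 days, where 0.326, 0.085 and 0.0354% of 14115 genes were called. At 6 hours all of these were higher (0.326% higher, 0% lower), at 7 days 0.0638% were higher and 0.0213% lower, and at 28 days 0.0283% were higher and 0.00708% lower. By unadjusted p under 0.05 the counts were 0, 2 and 0, with no share of all genes given for that threshold, and DESeq2 called 0 at each time. Tnc stood at 3.74 and 2.107 CPM in sham and 5.434 and 6.123 CPM in irradiated myocytes at 28 days (0.99 ± 0.55). The log2 fold changes of single members had SE of up to 0.60, against at most 0.19 in fibroblast libraries, so most effects of the size called in fibroblasts were not detectable here. The first irradiated library of 7 days stood apart, with a normalization factor of 0.838 against 0.957 to 1.055 in the other myocyte libraries. The sham libraries of 7 days differed from each other too, with the 34 members summing to 7975 and 4474 CPM and Col1a1 at 582.9 and 266.7 CPM, while both irradiated sums (6364 and 6570 CPM) lay between them. At 7 days Thbs1 stood at 28.11 CPM in that library and 64.26 CPM in its replicate, against 102.5 and 65.43 CPM in sham. Without irradiated replicate 2 of 7 days the group rests on the first library alone, and members were called in both directions. The share of all genes called in that fit is not given, so it is not read as a result about the members.

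The effects in fibroblasts were also set against those in the other cell types. In the fit of all 36 libraries 0 members were called as differing between fibroblasts and endothelial cells, where 2.11, 0.222 and 0.283% of 16234 genes were called at 6 hours, 7 days and 28 days. The shares with a higher fibroblast effect were 1.39, 0.111 and 0.117%, and those with a lower one 0.721, 0.111 and 0.166%. An unadjusted p under 0.05 was found for 4 members at 6 hours, 0 at 7 days and 1 at 28 days. The share of all genes under that threshold is not given. DESeq2 called 0 members at each time. At 6 hours the fibroblast effect was below the endothelial effect for all 5 fibrillar collagens, from -0.32 for Col5a2 to -0.65 for Col5a1. It was also below for all 7 other collagens. At 7 days it was above the endothelial effect for all 5 and all 7, and at 28 days for 4 of 5 and 6 of 7. A fit of the 24 libraries of both cell types alone, chosen after seeing the data, called 7 members at 6 hours and 1 at 28 days. All 7 had the lower effect in fibroblasts. The share of all genes called in that fit is not given, so these counts are a description. At 6 hours the largest differences by the 36-library fit were those of Vcan (-0.93 ± 0.42), Thbs2 (-0.83 ± 0.29) and Col14a1 (-0.79 ± 0.32), with adjusted p of 0.285, 0.158 and 0.223. At 28 days Col15a1 differed most, at -0.72 ± 0.28 (adjusted p = 0.441). A called fall in fibroblasts beside no call in endothelial cells is therefore not shown to be a difference between them in that fit. Against myocytes 0 members were called at each time, where 1.18, 0.0862 and 0.105% of genes were called, and DESeq2 called 0 at each time. The shares with a higher fibroblast effect were 1.05, 0.0616 and 0.0924%, and those with a lower one 0.129, 0.0246 and 0.0123%. Unadjusted p was under 0.05 for 0, 5 and 0 members, again with no share of all genes under that threshold. Without irradiated myocyte replicate 2 of 7 days, members were called at 7 days. That group then rests on a single library, and no share of all genes is given for that fit.

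The value for Tnc at 28 days was above 0 in each cell type: 1.01 ± 0.15 in fibroblasts, 1.40 ± 0.17 in endothelial cells and 0.99 ± 0.55 in myocytes, of which the first and second were called. Fap was at -0.67 ± 0.07, -0.89 ± 0.28 and -0.71 ± 0.33, and was called in fibroblasts alone. Postn, at 0.60 ± 0.11 in fibroblasts and 0.32 ± 0.15 in endothelial cells, was likewise called in fibroblasts alone. None of these 3 genes was called as differing in effect between cell types. In sham libraries the median level of Fap was 13.8 RPKM in fibroblasts, 0.81 RPKM in endothelial cells and 1.05 RPKM in myocytes. The latter levels, 5.87 and 7.58% of that in fibroblasts, lay inside the ranges of the fibroblast markers. So did that of Tnc in myocytes (10.8%). The part of fibroblast RNA in these values was not tested.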

How the data were processed

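RNA was prepared with RNeasy and libraries with SMARTer chemistry, per the labels' protocols, and reads were placed on GRCm38 (mm10), per the submitters' processing notes. Which aligner and read counter were used is not given in the sources used here. For each of the 36 libraries the authors deposited a read count per RefSeq transcript and a length-normalized value. The deposited length-normalized column is named as TPM in the file headers but equals RPKM computed from the counts and lengths (largest difference 0), and is called RPKM here. Of the read columns, 30 belonged to other libraries and were not used.

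One transcript per gene name was kept out of 33068 transcript rows, that with most reads. Counts were tested with edgeR 4.0.16 (R 4.3.3; TMM, filterByExpr, quasi-likelihood F-test, Benjamini-Hochberg adjustment over all genes tested, threshold 0.05), in one fit of 12 libraries per cell type for effects of radiation and of 36 libraries for differences between cell types. CPM are counts over TMM-scaled library sizes. SE is the log2 fold change over the square root of F. No 2 libraries were identical. Alternatives were DESeq2 1.42.0, limma 3.58.1 on log2(RPKM + 1), other sets of libraries, no low count filter, a replicate block and leaving out each library. Counts of called members from alternatives are given without the share of all genes called in the same run. The edgeR script was tested on simulated data. Scripts ran under Python 3.11.15. The total count per library sets the precision, and the depth ranges open the results.

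The members and gene lists were chosen with earlier results of these data known. All 34 members could be named whatever their p; from every other list only the 3 called genes of smallest p in a comparison, and defining markers. Of 203 list genes, 202 were in the files, 8 under an older symbol.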

Additional observations from a re-analysis of the deposited data

Results flagged for a closer look

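The radiation effect differed between 28 days and 6 hours for 21 members in fibroblasts and 5 in endothelial cells by the edgeR test of the difference itself (log2 fold change at 28 days minus that at 6 hours). In fibroblasts every one of these was more positive at 28 days. The values were 1.27 for Tnc, 0.92 for Postn and 0.68 for Fn1 among glycoproteins, with Sparc at 0.39. Fibrillar collagens gave 0.71 for Col3a1, 0.59 for Col1a2, 0.53 for Col1a1, 0.40 for Col5a1 and 0.37 for Col5a2. The other collagens gave 0.57 for Col8a1, 0.53 for Col14a1, 0.45 for Col6a3, 0.42 for Col16a1, 0.29 for Col6a1, 0.28 for Col15a1 and 0.27 for Col6a2. Loxl3 and Loxl2 stood at 0.50 and 0.43, Fbn1 and Fbln5 at 0.38 and 0.32, and Bgn at 0.31.

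In endothelial cells Sparc (1.23), Tnc (1.15) and Col15a1 (0.87) were more positive at 28 days, and Vcan (-1.40) and Fbln1 (-1.0) more negative. With groups of 2 libraries no formal search for single outlying libraries was made, and those described above as apart were picked out by their values.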

How the results depend on the processing

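No direction of a called member reversed in any alternative run. The number of members called changed with the libraries put in one fit. With all 36 libraries it was 0 in fibroblasts at 6 hours, 7 days, 28 days and for 28 days minus 6 hours. In that fit it was 2 in endothelial cells at 6 hours, 2 for their 28 days minus 6 hours, and 2 in myocytes at 7 days. With no low count filter it was 7 and 14 in fibroblasts at 7 and 28 days, 12, 5 and 9 in endothelial cells at 6 hours, 7 days and 28 days, 9 for the endothelial 28 days minus 6 hours, 2 in myocytes at 7 days, 3 for fibroblast minus endothelial at 6 hours and 2 for fibroblast minus myocyte at 7 days. DESeq2 gave 5 in fibroblasts at 7 days and 1 and 7 in endothelial cells at 7 and 28 days. Limma on log2(RPKM + 1) gave 5 in fibroblasts at 28 days. Fits of only the 4 libraries compared gave 2 in endothelial cells at 6 hours, 2 at 7 days and 2 in myocytes at 6 hours. A fit of the 24 libraries of both cell types, chosen after seeing the data, gave 7 for fibroblast minus endothelial at 6 hours and 1 at 28 days. Also after seeing the data, leaving the marker Lamc1 out of the fibroblast markers moved the members above their range in sham endothelial libraries from 10 to 17. The cause of the shifts between fits and tests was not tested, and the share of all genes called in each run is not given beside these counts.

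Leaving out 1 library at a time gave 13 to 20, 0 to 2 and 2 to 10 called members in fibroblasts at 6 hours, 7 days and 28 days and 13 to 21 for 28 days minus 6 hours. It gave 1 to 5, 0 to 0 and 3 to 6 in endothelial cells and 3 to 6 for their 28 days minus 6 hours. In myocytes it gave 0 to 0 at 6 and 28 days and 0 to 11 at 7 days, and for fibroblast minus myocyte at 7 days 0 to 10. A group left with 1 library was assumed to vary like the other groups, and these counts stand without the share of all genes called in each fit. With a replicate block, 19 members were called in fibroblasts at 6 hours, 10 at 28 days and 23 for 28 days minus 6 hours, and no count moved by over 1.5 times. The correlation of same-numbered deviations ran from -0.201 to 0.198 over the 9 comparisons, so the replicate numbers were not taken to pair libraries. The 10.18 to 19.42 M reads and the larger spread of myocyte libraries (biological coefficient of variation 0.172, against 0.0677 in fibroblasts) limit what could be called there.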
